A study of Homo sapiens with 32 samples.

Results

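The transcripts described here encode deubiquitinases, the proteases that remove ubiquitin from proteins, and E2 enzymes, the ubiquitin-conjugating enzymes that carry ubiquitin to a substrate. Members were the protein-coding RefSeq transcripts on autosomes whose current symbol is USP followed by a number, OTUD, UCHL, JOSD or UBE2, without UBE2C, together with CYLD, BAP1, OTUB1 and STAMBP. This gave 106 transcripts of 78 genes out of 12966 transcripts of 10827 genes with a decay rate in both lines: 58 deubiquitinase transcripts of 48 genes and 48 E2 transcripts of 30 genes. USP6NL came in through its symbol, although its product is a GTPase-activating protein of RAB GTPases and no deubiquitinase. By catalytic family, 44 transcripts belong to the ubiquitin-specific proteases, 7 to the OTU proteases, 4 to the UCH proteases, and 1 each to the Josephin and JAMM families.

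The lines compared were the breast cancer cell line MDA-MB-231, of human origin, and its derivative MDA-LM2, selected in mice for metastasis to the lung. Both lines received 4-thiouridine, a uridine analogue that marks newly made RNA, for 2 h, then a chase with uridine, and labelled RNA was sequenced at 0, 2, 4 and 7 h, in 32 libraries. The rates come in 4 series per line, named 1_1, 1_2, 2_1 and 2_2, and rates are given below in that order. A higher rate means faster loss of labelled RNA and a negative rate means that abundance rose with time. The unit is the deposited one, its log base is not given in the sources used here, and no half-life was derived. Nothing in the sources says that the series were separate cultures, so p-values reflect only how far these series spread. Of the markers looked up, VIM, CD44, EPCAM and KRT18 had transcripts in both tables and ESR1, PECAM1, PTPRC and COL1A1 had none; rates hold no expression level. The read depth behind a rate is unknown.

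Ubiquitin is activated by an E1 enzyme, passed to an E2 and placed on a substrate with the help of an E3 ligase. The E2 often decides which type of ubiquitin chain is built, and so whether the substrate goes to the proteasome, is re-routed in the cell or joins a signalling complex. Deubiquitinases trim or remove these chains, recycle ubiquitin at the proteasome and rescue proteins from degradation. A few enzymes with the E2 fold carry NEDD8 or ISG15, small proteins related to ubiquitin, in place of it.

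The E2 medians were further apart between the lines than the deubiquitinase medians, and the order of the classes differed between the lines. The median over the 58 deubiquitinase transcripts was 0.153, 0.179, 0.151 and 0.15 in the 4 MDA-LM2 series and 0.151, 0.161, 0.188 and 0.167 in the 4 MDA-MB-231 series. The median over the 48 E2 transcripts was 0.138, 0.143, 0.138 and 0.147 in MDA-LM2 against 0.180, 0.214, 0.235 and 0.199 in MDA-MB-231. The deubiquitinase medians of the lines thus overlapped, while every E2 median of MDA-LM2 lay below every E2 median of MDA-MB-231. Over all 12966 transcripts the medians averaged 0.159 ± 0.0115 in MDA-LM2 against 0.182 ± 0.0156 in MDA-MB-231 (SD, n = 4 series). The deubiquitinase median exceeded the E2 median by 0.0166 ± 0.0142 in MDA-LM2 and was lower by 0.0402 ± 0.0115 in MDA-MB-231 (SD, n = 4), with the same sign in 4 of 4 series of each line. These medians are descriptions with no test, because members share their series.

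**Figure D1:**
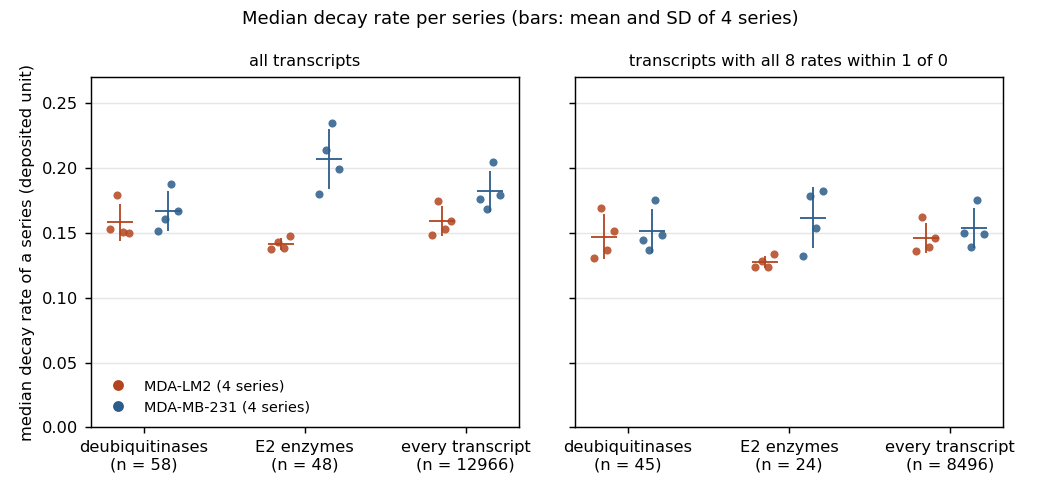
Median decay rate in the deposited unit (vertical axis) of each series, for deubiquitinases, E2 enzymes and every transcript, over all transcripts (left) and over those with all 8 rates within 1 of 0 (right); points are series, bars their mean and SD. On the left the E2 medians average 0.142 in MDA-LM2 against 0.207 in MDA-MB-231 and do not overlap. On the right the E2 medians of the lines overlap, and the deubiquitinase and E2 medians of MDA-MB-231 are interleaved.

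Most rates lay between 0 and 0.5, and a separate set lay beyond 1 either side of 0. Such values made up 26.6% of E2 values in MDA-MB-231 (51 of 192) against 9.91% of deubiquitinase values (23 of 232) and 18.3% over all transcripts. In MDA-LM2 the shares were 4.69%, 3.45% and 4.24%. Of these values, 19 E2 and 10 deubiquitinase rates of MDA-MB-231 fell in a narrow band from 9.22 to 10.0, which held 1 rate of each class in MDA-LM2. In MDA-MB-231, 9.9% of E2 and 4.31% of deubiquitinase values lay above 9, beside 9.17% over all transcripts. The share over all transcripts in MDA-LM2 was 1.42%. The large rates were concentrated in genes represented by several transcripts: 22 of the 29 E2 transcripts of such genes had at least 1 rate beyond 1, against 2 of the 19 E2 transcripts that were the only one of their gene. The corresponding numbers were 7 of 20 and 6 of 38 for deubiquitinases, and 52.3% and 27.0% over all transcripts. Whether the way reads were divided among transcripts of a gene plays a part was not tested.

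With all 8 rates required to lie within 1 of 0, 45 deubiquitinase and 24 E2 transcripts were left of 8496 in all. Their medians averaged 0.147 ± 0.0173 and 0.151 ± 0.0169 for deubiquitinases in MDA-LM2 and MDA-MB-231, and 0.127 ± 0.00466 and 0.162 ± 0.0235 for E2 enzymes (SD, n = 4). The E2 medians of the lines overlapped here: series 1_1 of MDA-MB-231 (0.132) lay below series 2_2 of MDA-LM2 (0.134). The deubiquitinase median exceeded the E2 median in 4 of 4 MDA-LM2 series, by 0.0197 ± 0.0150. In MDA-MB-231 it was lower by 0.0417 and 0.0342 in series 1_2 and 2_2 and higher by 0.0124 and 0.0219 in series 1_1 and 2_1, so the order of the classes in that line did not hold among these transcripts. The median difference between the lines (MDA-LM2 minus MDA-MB-231) was -0.101 over all E2 transcripts and -0.0313 over those in this range, against -0.0538 and -0.0166 over every transcript. In this range 54.2% of E2 transcripts had the lower mean in MDA-LM2, beside 57.5% of all transcripts.

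The question of the study, which transcripts differ in stability between the lines, was put to every transcript with limma, and 6 E2 transcripts of 5 genes and 2 deubiquitinase transcripts decayed more slowly in MDA-LM2 at a Benjamini-Hochberg adjusted p of 0.05. The E2 transcripts were of UBE2L3, UBE2J2, UBE2D4, UBE2D2 and UBE2E1, and the deubiquitinase transcripts of USP15 and BAP1. That was 12.5% of E2 and 3.45% of deubiquitinase transcripts, beside 6.04% of all transcripts. A single deubiquitinase transcript, of USP4, decayed faster in MDA-LM2 (1.72%, beside 1.9% of all) and no E2 transcript did. The deubiquitinase shares are near the background, and the E2 share rests on 6 transcripts. For the called transcripts of UBE2L3 and UBE2J2, all 4 MDA-MB-231 rates lay beyond 1. At an unadjusted p under 0.05, limma counted 9 deubiquitinase transcripts as slower and 3 as faster, and 11 and 0 E2 transcripts, beside 18% and 7.19% of all. The 4 rates of MDA-LM2 all lay below the 4 of MDA-MB-231 for 13 of 48 E2 and 10 of 58 deubiquitinase transcripts, beside 16.6% of all, and all above them for 1 and 3, beside 5.83% of all.

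Series of a line that share the second number of their name deviated together, so the fit was repeated with a correlation between them. It called 4 E2 transcripts and 1 deubiquitinase transcript as slower, beside 2.97% of all, and none of either class as faster, beside 0.285%. At an unadjusted p under 0.05 this correlation left 7 E2 and 4 deubiquitinase transcripts as slower, beside 10.9% of all, and 0 and 2 as faster, beside 4.21%. Limited to transcripts with all rates within 1 of 0, limma called 3 of 24 E2 and 3 of 45 deubiquitinase transcripts as slower, beside 6.64% of all, and 0 and 1 as faster, beside 3.4%. With both choices together limma called no transcript of any kind, 0% in either direction; at an unadjusted p under 0.05 it counted 4 E2 and 4 deubiquitinase transcripts as slower, beside 11.7% of all, and 0 and 1 as faster, beside 6.1%. With each series centred on its median, limma called 622 of all transcripts as slower (4.8%) and 442 as faster (3.41%), beside 783 and 246 without centring, and 4 E2 and 1 deubiquitinase transcripts as slower and 0 and 1 as faster.

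UBE2L3 showed the largest difference. Its product, also known as UBCH7, works with HECT and RBR ligases such as parkin and the linear chain complex. The transcript NM_001256356 had rates of 0.238, 0.159, 0.183 and 0.173 in MDA-LM2 against 9.32, 9.22, 9.49 and 9.46 in MDA-MB-231. All 4 MDA-MB-231 rates stood far above all 4 MDA-LM2 rates, and the difference was -9.18 (SE 0.547, limma adjusted p = 6.85e-05; 0.000373 with the correlation between series). The other transcript of the gene, NM_003347, gave 0.132, 0.198, 0.130 and 0.213 in MDA-LM2 against 0.106, 0.128, 0.168 and 0.147 in MDA-MB-231. These overlapped (difference 0.0309, limma adjusted p = 0.474). The transcripts differ in their coding part by exon 2 of NM_003347, which NM_001256356 lacks and whose loss shortens the coding length from 462 to 366 bases. The exon is shown because it is the coding sequence that tells apart a transcript whose lines overlapped from one with the largest difference; it lies on the plus strand at chr22:21592861-21592956 of GRCh38.

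UBE2L3 coding exon 2, in NM_003347 only: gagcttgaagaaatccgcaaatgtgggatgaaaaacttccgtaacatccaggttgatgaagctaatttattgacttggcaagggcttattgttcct

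UBE2J2 is an E2 anchored in the membrane of the endoplasmic reticulum, where it serves the removal of misfolded proteins. Its transcript NM_058167 had rates of 0.273, 0.453, 0.235 and 0.484 in MDA-LM2 against 2.32, 2.43, 2.40 and 2.29 in MDA-MB-231 (difference -2.0, SE 0.164, limma adjusted p = 0.000307). NM_194315 had 0.475, 0.359, 0.480 and 0.216 against 2.88, 2.82, 2.84 and 2.80 (difference -2.45, SE 0.223, limma adjusted p = 0.000559). In both transcripts the lines were far apart, and the spread over the MDA-MB-231 series was small, with every MDA-MB-231 rate beyond 1. NM_194457 gave 0.184, 0.195, 0.121 and -1.82 in MDA-LM2 against -0.466, -0.323, -0.242 and -0.191 in MDA-MB-231, so that 3 of its 4 MDA-LM2 rates lay above and 1 below every MDA-MB-231 rate (limma adjusted p = 0.978). Without series 2_2 of MDA-LM2 this transcript was called as faster there, by 0.472 (limma adjusted p = 0.0154). The calls of NM_058167 and NM_194315 held with the correlation between series (limma adjusted p = 0.00142 and 0.00257) and with each series left out, and were lost with limma's robust variance estimate (adjusted p = 0.0924 and 0.0728).

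The UBE2D enzymes, also known as UBCH5, are closely related E2s that work with a wide range of ligases. UBE2D4 (NM_015983, its only transcript) had rates of 0.0976, 0.102, 0.0378 and 0.0733 in MDA-LM2 against 0.326, 0.213, 0.304 and 0.232 in MDA-MB-231. The lowest MDA-MB-231 rate was above the highest of MDA-LM2, and the transcript decayed more slowly in MDA-LM2 by 0.191 (SE 0.0317, limma adjusted p = 0.0138; 0.0477 with the correlation between series). UBE2D2 (NM_003339) had 0.0911, 0.109, 0.0961 and 0.0993 against 0.183, 0.199, 0.230 and 0.309 (difference -0.131, SE 0.0295, limma adjusted p = 0.0420). Its lines did not overlap either, with the wider spread in MDA-MB-231. The UBE2D2 call was lost with the correlation between series (limma adjusted p = 0.217) and without any MDA-LM2 series or without series 2_1 of MDA-MB-231 (up to 0.123). That of UBE2D4 was lost without series 2_1 or 2_2 of MDA-LM2 (up to 0.0514). The second UBE2D2 transcript, NM_181838, lacks the first 87 coding bases of NM_003339 and had rates from -0.0389 to 0.146 in MDA-LM2 against from -0.181 to 2.97 in MDA-MB-231, which overlapped.

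UBE2D3 was measured through 6 transcripts, the most of any member, and none passed the test. In MDA-LM2 all 24 rates lay between 0.0181 and 0.551. In MDA-MB-231, 4 of the 6 transcripts had at least 1 rate beyond 1, and their means ran from 0.132 to 7.52. NM_181889 had 9.90, 9.74, 0.481 and 9.94 there, against 0.0181, 0.253, 0.149 and 0.200 in MDA-LM2 (limma adjusted p = 0.104). Its lines did not overlap, and without series 2_1 of MDA-MB-231 the difference was called, at -9.71 (limma adjusted p = 0.00082). NM_181886 had 9.40, 0.571, 0.0761 and 9.59 in MDA-MB-231, high in other series than NM_003340, which had 0.267, 9.77, 0.114 and 0.0563. The high rates therefore fell in different series for transcripts of one gene. NM_181892 was the evenest, with 0.178, 0.235, 0.0810 and 0.252 in MDA-LM2 against 0.278, 0.238, 0.263 and 0.184 in MDA-MB-231. It also has a coding end of its own, shown with that of NM_181891 because it is the part of the coding sequence in which these transcripts differ; both lie on the minus strand of GRCh38, at chr4:102798932-102798971 and chr4:102797418-102797454.

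UBE2D3 NM_181892, differing coding end: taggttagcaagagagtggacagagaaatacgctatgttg

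UBE2D3 NM_181891, differing coding end: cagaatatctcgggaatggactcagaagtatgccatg

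UBE2D1 also had 2 transcripts with large rates in MDA-MB-231. NM_003338 gave 0.179, 0.199, 0.232 and 0.280 in MDA-LM2 against -0.0841, 1.80, 1.79 and 1.70 in MDA-MB-231, and the lines overlapped through series 1_1 alone. Without that series it was called slower in MDA-LM2, at -1.54 (limma adjusted p = 0.000646, against 0.177 with all series). NM_001204880 ran from -8.54 to 1.64 in MDA-MB-231 against from -0.0432 to 0.175 in MDA-LM2.

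The UBE2E enzymes carry an extended amino terminus in front of a UBE2D-like core. UBE2E1 (NM_003341) had rates of 0.0692, 0.0169, 0.0564 and -0.00970 in MDA-LM2 against 0.205, 0.269, 0.116 and 0.298 in MDA-MB-231. The lines did not overlap, and the difference was -0.189 (SE 0.0427, limma adjusted p = 0.0425). It was lost with the correlation between series (limma adjusted p = 0.126) and on leaving out any series except 2_1 of MDA-MB-231 (up to 0.121). Centring each series on its median also lost the UBE2E1 call (limma adjusted p = 0.0954). UBE2E2, among the slowest E2 transcripts, had -0.0386, 0.0379, 0.0622 and 0.0434 in MDA-LM2 against -0.00434, 0.148, 0.0659 and 0.242 in MDA-MB-231, which overlapped (difference -0.0866, limma adjusted p = 0.331). Both transcripts of UBE2E3 had a rate beyond 1 in MDA-MB-231 and overlapped between the lines.

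**Figure D2:**
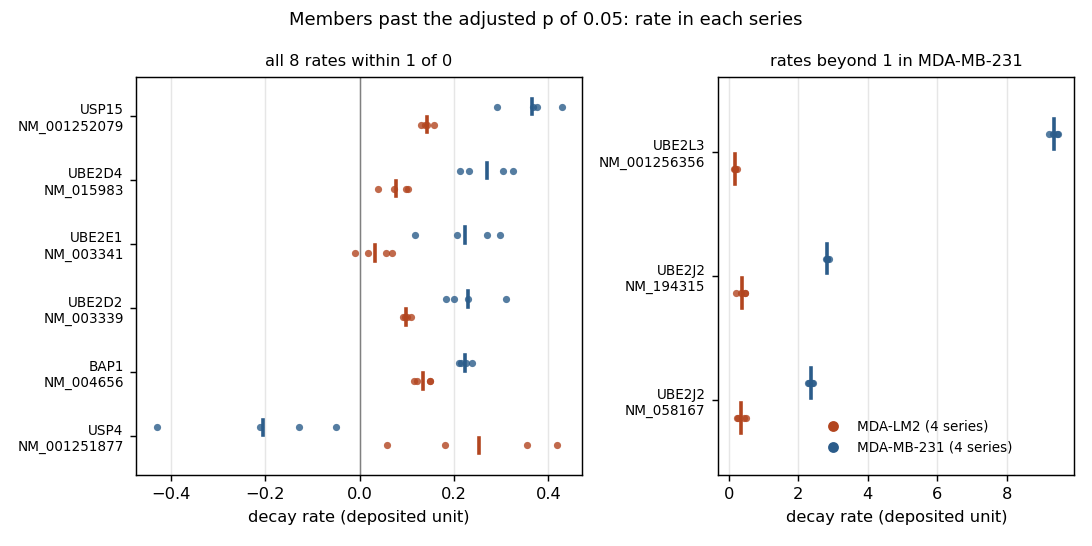
Decay rate in the deposited unit (horizontal axis) in each of the 4 series of MDA-LM2 and MDA-MB-231 for the 9 member transcripts past a limma adjusted p of 0.05; short lines are means. In the left panel (all rates within 1 of 0) the 4 MDA-LM2 points lie to the left of the 4 MDA-MB-231 points for every transcript except USP4, and in the right panel the MDA-MB-231 points of UBE2L3 and UBE2J2 lie between 2.29 and 9.49.

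Other E2 enzymes with a set role overlapped between the lines or missed the threshold. UBE2H NM_001202498, chosen after its values were seen, had 0.308, -0.0424, 0.375 and 0.301 in MDA-LM2 against 0.0172, 0.0393, 0.0646 and 0.0116 in MDA-MB-231, and limma called it as faster in MDA-LM2 without series 1_2 of that line, the one low value. The other UBE2H transcripts, NM_003344 and NM_182697, had the opposite sign, at -2.14 and -3.23 (limma adjusted p = 0.502 and 0.336). The lines did not overlap for NM_182697. UBE2N, which builds the chains used in signalling and DNA repair, had 0.128 ± 0.0259 in MDA-LM2 against 0.155 ± 0.0401 in MDA-MB-231 (SD, n = 4; limma adjusted p = 0.497). Its catalytically inactive partners differed in the sign of their differences: UBE2V1 had 0.152 ± 0.00992 and 0.0924 ± 0.0696 (adjusted p = 0.301), and UBE2V2 had 0.0710 ± 0.0139 and 0.187 ± 0.0734 (adjusted p = 0.106), the latter with no overlap between the lines. The difference between these partners was not tested. UBE2S, which extends chains for the anaphase-promoting complex, had 0.104 ± 0.0253 and 0.157 ± 0.0834 (adjusted p = 0.437).

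The E2s of ubiquitin-like proteins showed the same division between ordinary and large rates. UBE2M, a NEDD8 E2, had 0.0828, 0.130, 0.134 and 0.0913 in MDA-LM2 against 0.132, 0.217, 0.202 and 0.179 in MDA-MB-231, overlapping at the lower end (difference -0.0728, limma adjusted p = 0.119). UBE2F, the second NEDD8 E2, overlapped fully (0.136 ± 0.0557 and 0.117 ± 0.0694, SD, n = 4). UBE2L6, the E2 of ISG15, had -0.0251, 9.69, 0.276 and 9.68 in MDA-MB-231, and at most 0.213 in MDA-LM2 (limma adjusted p = 0.288).

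Among the E2s of the endoplasmic reticulum other than UBE2J2, no transcript passed the test. UBE2J1 decayed slowly in both lines, with 0.112 ± 0.0231 in MDA-LM2 against 0.0468 ± 0.0537 in MDA-MB-231 (SD, n = 4; limma adjusted p = 0.224), the opposite sign to UBE2J2. UBE2G1 had 0.190 ± 0.0121 and 0.15 ± 0.0373 (limma adjusted p = 0.298). UBE2G2 NM_003343 was near 0 in both lines (0.0412 ± 0.0917 and 0.0171 ± 0.0151), while its shorter transcript NM_182688 had 2.27, -6.32, 2.55 and 9.61 in MDA-MB-231 and overlapped with MDA-LM2.

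Deubiquitinases with a difference past the threshold were USP15, BAP1 and USP4. USP15 acts on SMAD proteins in TGF-beta signalling. Its shortest transcript, NM_001252079, had rates of 0.131, 0.142, 0.158 and 0.139 in MDA-LM2 against 0.290, 0.428, 0.368 and 0.376 in MDA-MB-231. Every MDA-MB-231 rate was above every MDA-LM2 rate, and the difference was -0.223 (SE 0.0314, limma adjusted p = 0.00691; 0.0377 with the correlation between series). Leaving out any series kept the call (up to 0.0321). It was lost with the replicate number as a block (limma adjusted p = 0.0688) and under the authors' deposited score (adjusted p = 0.0574). Among transcripts within 1 of 0, it was also lost with the correlation between series (limma adjusted p = 0.0984). The longer NM_001252078 gave 0.0809, 0.214, 0.0247 and 0.205 against 0.114, 0.580, 0.209 and 0.445, which overlapped (difference -0.206, limma adjusted p = 0.286). NM_006313 had a single rate of -1.83 in series 1_2 of MDA-MB-231 and lay between 0.0736 and 0.450 in the other series of that line. With the gene's median over its transcripts as the unit, USP15 was called at -0.196 (limma adjusted p = 0.0240). The transcripts share their first 683 coding bases. NM_001252079 then ends with 22 further bases, shown because they are found in the called transcript and not at this place in NM_001252078. NM_001252078 continues with exon 7, which NM_006313 skips and which is shown because it is where the longer 2 transcripts differ. Both stretches lie on the plus strand of GRCh38, at chr12:62335166-62335187 and chr12:62349221-62349307.

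USP15 NM_001252079, own coding end: aaagccactagagcagagttgc

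USP15 coding exon 7, in NM_001252078 and not in NM_006313: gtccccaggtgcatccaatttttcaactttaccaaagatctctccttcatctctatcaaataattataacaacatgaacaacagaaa

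BAP1, a tumour suppressor that removes ubiquitin from histone H2A with its ASXL partners, had rates of 0.149, 0.122, 0.148 and 0.115 in MDA-LM2 against 0.214, 0.211, 0.239 and 0.226 in MDA-MB-231. The lines did not overlap, and both spreads were small (difference -0.0891, SE 0.0170, limma adjusted p = 0.0238). With the correlation between series the adjusted p was 0.0989, and without any one of the MDA-LM2 series it reached up to 0.0863. The BAP1 call was also lost with each series centred on its median (limma adjusted p = 0.0767). The same held with the replicate number as a block (0.154). USP4, the paralogue of USP15, was called on NM_001251877, a short transcript that had 0.181, 0.354, 0.0577 and 0.417 in MDA-LM2 against -0.431, -0.130, -0.211 and -0.0504 in MDA-MB-231. All 4 parental rates were negative and all 4 MDA-LM2 rates positive (difference 0.458, SE 0.108, limma adjusted p = 0.0483). That call was lost without any one of the 8 series (0.0532 to 0.124) and with the correlation between series (0.142). The longer NM_003363 gave 0.219, 0.289, 0.256 and 0.127 in MDA-LM2 against -0.153, 0.229, 2.06 and 1.96 in MDA-MB-231, which overlapped, and the median of both transcripts had the opposite sign, -0.172 (limma adjusted p = 0.698).

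**Figure D3:**
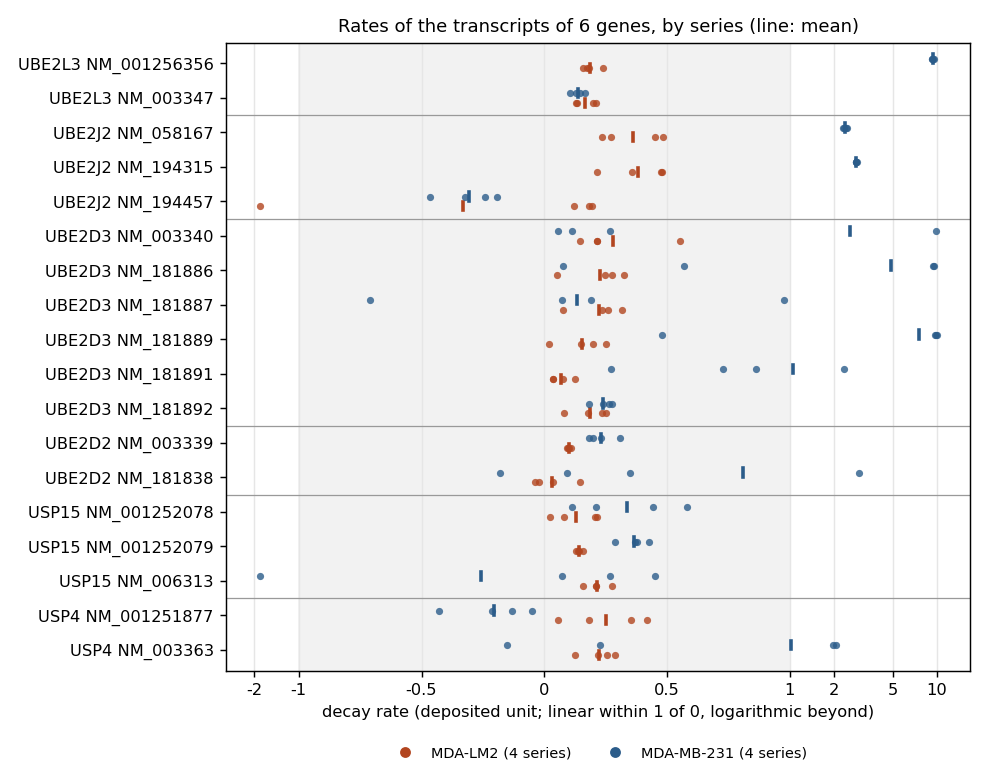
Decay rate in the deposited unit (horizontal axis, linear within 1 of 0 and logarithmic beyond, shaded within 1) of each transcript of 6 genes in the 4 series of each line; short lines are means. The MDA-LM2 points lie within 1 of 0 except 1 rate of UBE2J2 NM_194457 at -1.82, while those of MDA-MB-231 reach 9.94.

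Over the 20 member genes with several transcripts, the distance between the highest and the lowest transcript mean was wider in MDA-MB-231 for 18. Its median was 0.0880 in MDA-LM2 against 1.62 in MDA-MB-231, beside 0.138 and 1.38 over all 1691 such genes, of which 1388 were wider in MDA-MB-231. For the 11 E2 genes the medians were 0.180 and 3.04 and for the 9 deubiquitinase genes 0.0685 and 0.709. USP16 and UBE2W were the 2 genes with a narrower distance in MDA-MB-231.

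Of the 4 transcripts of UCH proteases, a family in which UCHL5 is bound to the proteasome, only that of BAP1 passed the test. UCHL5 NM_015984 gave 0.109, 0.12, 0.109 and 0.0779 in MDA-LM2 against 0.173, 0.280, 0.175 and 0.214 in MDA-MB-231. The lines did not overlap, and the difference of -0.107 (SE 0.0280) missed the threshold (limma adjusted p = 0.0678) but passed it among transcripts within 1 of 0 (0.0499) and without series 1_2 of MDA-MB-231 (0.0451). Its second transcript, NM_001199262, was at -0.0529, 10.0, 0.0489 and 9.93 in MDA-MB-231 and at most 0.0867 in MDA-LM2. UCHL3, which also cleaves NEDD8, was among the slowest deubiquitinase transcripts, with 0.0370 ± 0.0507 and 0.138 ± 0.0831 (SD, n = 4; limma adjusted p = 0.234). The 4 UCH transcripts had a median of 0.0882 ± 0.0149 in MDA-LM2 against 0.211 ± 0.0272 in MDA-MB-231 (SD over series), while the 44 ubiquitin-specific proteases had 0.155 ± 0.0119 and 0.162 ± 0.0177 and the 7 OTU proteases 0.221 ± 0.0242 and 0.190 ± 0.0446.

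USP1, USP12 and USP46 share the activating partner WDR48. USP1 NM_003368, whose product acts on FANCD2 and PCNA in DNA repair, had 0.179, 0.189, 0.199 and 0.205 in MDA-LM2 against 0.3, 0.323, 0.499 and 0.305 in MDA-MB-231. The lines did not overlap (difference -0.163, SE 0.0476, limma adjusted p = 0.0888), and without series 2_1 of MDA-MB-231 the difference of -0.116 was called (0.0212). The other USP1 transcript, NM_001017416, overlapped (0.182 ± 0.0471 and 0.176 ± 0.0468, SD, n = 4). USP12 had 0.181 ± 0.0115 and 0.208 ± 0.0324, and USP46 0.0598 ± 0.0460 and 0.158 ± 0.0872, with limma adjusted p of 0.440 and 0.253.

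Apart from USP15 and USP4, no transcript of the paralogue pairs chosen for description passed the test. USP25 and USP28, regulators of immune signalling and of MYC stability, had 0.14 and 0.116 in MDA-LM2 against 0.115 and 0.138 in MDA-MB-231. USP7, the deubiquitinase of MDM2, had 0.115, 0.129, 0.116 and 0.109 in MDA-LM2 against 0.0351, 0.1, 0.0728 and 0.106 in MDA-MB-231. All MDA-LM2 rates of USP7 lay above those of MDA-MB-231, by 0.0389 on average (SE 0.0193, limma adjusted p = 0.265). Its paralogue USP47 overlapped, at 0.145 and 0.141. USP33 and USP16 had 2 transcripts each within 1 of 0 and USP45 had 1; their means ran from 0.0639 to 0.174 in MDA-LM2 against from 0.0736 to 0.209 in MDA-MB-231. USP42 had 0.564, 0.514, 9.57 and 0.717 in MDA-MB-231 against 0.263 to 0.404 in MDA-LM2, with no overlap (limma adjusted p = 0.456). USP14, USP20, USP36 and JOSD2, also chosen for description, had no transcript in the set that both tables share.

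CYLD, OTUB1, STAMBP and JOSD1 did not pass the test. CYLD, a tumour suppressor that trims signalling chains in the NF-kB pathway, had -0.271, -1.50, -0.0727 and -1.71 in MDA-LM2 against 0.636, -0.0401, -0.285 and -0.256 in the parental line, with a limma adjusted p of 0.253. The MDA-LM2 rates of series 1_2 and 2_2 were far below the other pair. OTUB1, which also inhibits E2 enzymes such as UBE2N, had 0.0917 ± 0.0545 and 0.0955 ± 0.0306, and STAMBP, an endosomal protease, 0.129 ± 0.0696 and 0.134 ± 0.0347 (SD, n = 4; limma adjusted p = 0.947 and 0.944). JOSD1 had 0.191 ± 0.0291 and 0.143 ± 0.0290 (limma adjusted p = 0.257).

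The fastest members within 1 of 0 were ranked by the mean of both lines. UBE2O, a large enzyme that combines E2 and E3 activity and clears unassembled proteins, was the fastest, at 0.378, 0.416, 0.430 and 0.448 in MDA-LM2 against 0.454, 0.491, 0.469 and 0.475 in MDA-MB-231. Its rates did not overlap between the lines, yet the difference of -0.0544 (SE 0.0301) was not called (limma adjusted p = 0.291). UBE2R2 (0.318 ± 0.0217 and 0.278 ± 0.0657), UBE2Q1, UBE2D3 NM_181892 and UBE2Z followed among the E2s. The fastest deubiquitinases were USP37 (0.289 ± 0.0123 and 0.333 ± 0.0752), which acts on cyclin A, and USP38 (0.264 ± 0.0259 and 0.315 ± 0.0888), USP1 NM_003368, USP49 and USP54. USP1 NM_003368 ranked there through MDA-MB-231, with a mean of 0.193 in MDA-LM2 against 0.357 in MDA-MB-231. USP49 had 0.266, 0.370, 0.261 and 0.387 in MDA-LM2 against 0.165, 0.165, 0.262 and 0.209 in MDA-MB-231, with 1 rate of each line inside the other's range (difference 0.121, limma adjusted p = 0.121).

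The slowest members by the mean of both lines were UBE2G2 NM_003343, UBE2E2, UBE2J1, UBE2T and UBE2V1 among the E2s, and USP4 NM_001251877, USP8 NM_005154, UCHL3, USP16 NM_006447 and USP13 among the deubiquitinases. Some ranked so through MDA-MB-231 only. In MDA-LM2, USP4 NM_001251877 (0.253) and USP8 NM_005154 (0.151) lay above the deubiquitinase median in this range (0.147). UBE2V1 (0.152) likewise lay above the E2 median there (0.127). UBE2T, the E2 of the Fanconi anaemia pathway, had 0.0757 ± 0.0144 and 0.111 ± 0.0295 (SD, n = 4). USP8 NM_005154, whose product acts on endosomal cargo, had 0.102, 0.127, 0.118 and 0.257 in MDA-LM2 against 0.0889, 0.0128, -0.0827 and -0.117 in MDA-MB-231, with no overlap (difference 0.175, SE 0.0555, limma adjusted p = 0.106). The other USP8 transcript, NM_001128610, had the opposite sign and overlapped (difference -1.54, limma adjusted p = 0.289), with rates beyond 1 in both lines. USP13 had 0.0690 ± 0.0238 and 0.118 ± 0.0153, with no overlap (limma adjusted p = 0.134). No member in this range was both called and among the slowest by the mean of both lines, except USP4.

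**Figure D4:**
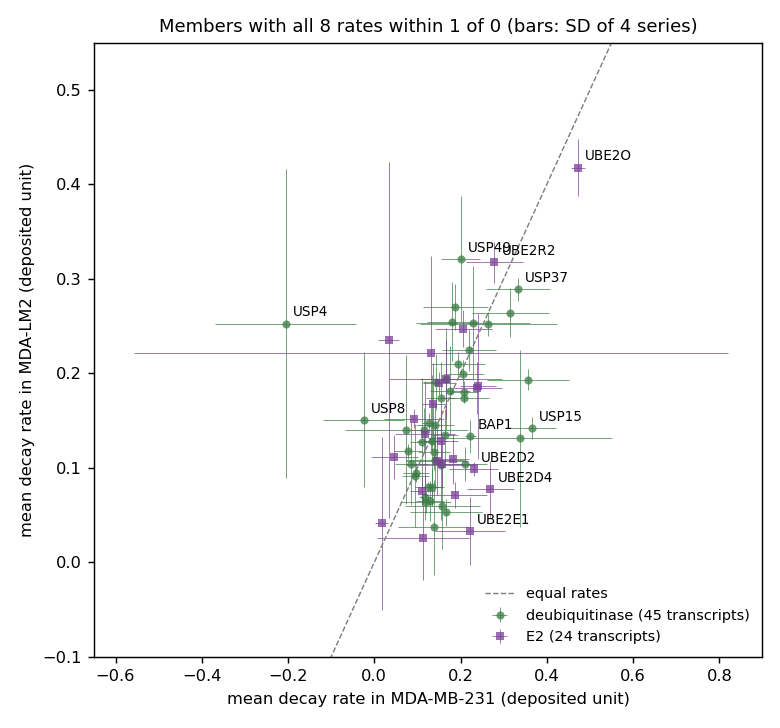
Mean decay rate in MDA-LM2 (vertical) against MDA-MB-231 (horizontal), in the deposited unit, for the 45 deubiquitinase and 24 E2 transcripts with all rates within 1 of 0; bars are SDs of 4 series and the dashed line marks equal rates. UBE2O lies alone at the fast end at 0.418 and 0.472, UBE2D4, UBE2E1, UBE2D2, BAP1 and USP15 lie below the line, and USP4 lies far above it.

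The classes differ in the build of their transcripts. Of the members, 102 matched a single GENCODE transcript. Deubiquitinase transcripts had a median length of 4419 bases and a median coding length of 2495, and E2 transcripts 2681 and 474, beside 3000 and 1377 for all protein-coding transcripts matched. Median 3' UTR lengths were 1303 and 1715 bases, beside 1001. ATTTA, the core of the AU-rich elements that mark many unstable mRNAs, was found on the sense strand of the 3' UTR in 77.8% of deubiquitinase and 83.3% of E2 transcripts, beside 70.1% of all. The longer motif TTATTTATT, which contains ATTTA, was found in 7 deubiquitinase and 2 E2 transcripts (13.0% and 4.17%, beside 8.26% of all). Members within 1 of 0 with the longer motif (n = 6) had median rates of 0.177 in MDA-LM2 against 0.187 in MDA-MB-231, and those without it (n = 59) 0.14 and 0.155, beside 0.170 and 0.172 with and 0.142 and 0.155 without it over all protein-coding transcripts. A motif match is a description of the sequence only.

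Across the 41 deubiquitinase transcripts in this range with a match, the rate in MDA-MB-231 had a Spearman rho of 0.422 (Pearson's r 0.324) with the number of ATTTA motifs, and across the 24 E2 transcripts one of -0.372 (r -0.319). Over all 7604 protein-coding transcripts in range rho was 0.105. In MDA-LM2 the same values were 0.193, -0.208 and 0.0880. For 3' UTR length, rho with the rate in MDA-MB-231 was 0.382, -0.0983 and 0.136 in the same order. In MDA-LM2 it was 0.258, -0.0148 and 0.175. Motif number and 3' UTR length were not told apart. For E2 coding length, Pearson's r was 0.682 in MDA-MB-231 but rho 0.193, and UBE2O has by far the longest coding part, at 3876 bases. These relations are across transcripts that share libraries, some of them a gene, and are descriptions only.

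Other genes of the pathway were counted in the same fit. Of 17 transcripts of ubiquitin and ubiquitin-like proteins, 4 decayed more slowly in MDA-LM2 (among them NEDD8, RPS27A and URM1) and none faster, beside the 6.04% and 1.9% of all transcripts; with the correlation between series 1 was left, NEDD8 (limma adjusted p = 0.0159). NEDD8 had -0.0834, -0.107, -0.0670 and -0.104 in MDA-LM2 against 0.0202, 0.0420, 0.0595 and 0.0293 in MDA-MB-231 (difference -0.128, SE 0.0149, limma adjusted p = 0.00247). Its rates were negative in MDA-LM2 and positive in MDA-MB-231 in every series. Of 14 E1 transcripts, 2 were slower, NAE1 NM_003905, part of the NEDD8 E1, and UBA1 NM_003334, the main ubiquitin E1, and none faster; with the correlation between series NAE1 lost its call (limma adjusted p = 0.0512) and UBA1 kept it (0.00263). UBA1 NM_003334 had rates of 2.35, 2.55, 2.72 and 2.11 in MDA-MB-231 against 0.0494, 0.248, -0.244 and -0.0425 in MDA-LM2 (limma adjusted p = 0.000278). The other UBA1 transcript, NM_153280, had the opposite sign and was not called (difference 0.999, limma adjusted p = 0.273). Its rates were -0.181, -1.07, -0.275 and -0.302 in MDA-MB-231 against 0.0316, -0.0169, 2.06 and 0.0951 in MDA-LM2.

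Of the other 17 transcripts of deubiquitinases outside the membership rule, 1 was slower, MINDY1, at 9.07 ± 0.603 in MDA-MB-231 against 0.242 ± 0.0934 in MDA-LM2 (SD, n = 4; limma adjusted p = 0.000167). Of 15 transcripts of deubiquitinase partners, 1 was slower, WDR20 NM_001242415, at 9.38 ± 0.0657 and 0.160 ± 0.0874 (limma adjusted p = 6.85e-05). The other WDR20 transcripts, NM_001242417 and NM_181291, were not called (limma adjusted p = 0.233 and 0.917). NM_181291 had rates of 9.46, 0.378, 9.56 and 0.217 in MDA-LM2 itself. WDR48, the partner of USP1, had 0.103 ± 0.0468 in MDA-LM2 against 0.198 ± 0.0666 in MDA-MB-231 (limma adjusted p = 0.193). None of 9 transcripts of other E2-fold proteins and none of 7 of SUMO proteases passed in limma. SENP8, the NEDD8 protease looked up with the SUMO proteases, had no transcript with rates in both lines. At an unadjusted p under 0.05 in limma the other E2-fold proteins had 4 slower and 2 faster and the SUMO proteases 1 slower. The ubiquitin-like proteins and the E1 enzymes had 9 and 8 slower and 0 faster. The other deubiquitinases had 3 and 0 and the partners 4 and 2, beside 18% and 7.19% of all transcripts. The median difference between the lines was -0.0812 for the ubiquitin-like proteins, -0.0727 for the E1 enzymes and -0.0285 for the other deubiquitinases. It was -0.0565 for the partners, -0.0801 for the other E2-fold proteins and 0.00344 for the SUMO proteases, beside -0.0538 over every transcript.

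The authors' deposited table gives each transcript a differential score that is positive where the mean rate was higher in the parental line. Its size matched, within 0.000394 over all 12966 transcripts, 1 minus the p of a comparison of the 4 against 4 rates that lets the lines differ in variance. Turned back into p-values and adjusted over all transcripts, the score in the authors' deposited table called 5 members, all slower in MDA-LM2, beside 4.49% of all transcripts as slower and 1.07% as faster: UBE2L3 NM_001256356, both UBE2J2 transcripts above, BAP1 and UBE2D4. Their adjusted p were 1.28e-05, 0.000167, 0.000653, 0.0104 and 0.0422.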

How the data were processed

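The authors deposited, per the file headers and the labels, 1 table of decay rates per line and 1 table of differential scores, all score values in an unnamed unit: a rate per RefSeq transcript and series, fitted over the 0, 2, 4 and 7 h libraries. Per the submitters' processing notes, TopHat and Cufflinks were used and hg18 was the build, with no version or role stated. Not given in the sources used here were the log base, the scaling between time points, the treatment of zeros and the division of reads among transcripts of a gene.

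The members, lists and tests were chosen with earlier results of these data known. Symbols came from a RefSeq gene table (12644 transcripts) and GENCODE release 29 (117); 205 transcripts stayed without. Because the builds differ, coordinates are given only for sequences matched to GENCODE transcripts, in GRCh38. The 12966 transcripts in both tables were fitted with limma 3.58.1 (R 4.3.3, statmod 1.5.0; variance trend, no block, two-sided) and adjusted by Benjamini-Hochberg at 0.05; every adjusted p is from limma unless the score is named. The correlation between series of a line that share the second number was 0.460. On simulated data with 12966 transcripts limma recovered 64% of differences of 0.3 and 6% of 0.1, with 6.67% false calls. The simulated series were independent and normal, with the same spread in both lines, and differences were added only to transcripts within 1 of 0. Real series sharing the second number were correlated, and rates beyond 1 were more frequent in MDA-MB-231. These percentages therefore do not carry over to the calls above. Depth is unknown, so no counting interval is given.

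Named transcripts followed a rule: every member past the threshold; the 5 fastest and 5 slowest of each class with all 8 rates within 1 of 0; members with all 4 rates of a line beyond 1; CYLD, BAP1, OTUB1 and STAMBP; and functional sets and paralogue pairs. Not every transcript the rule selects is described, and some items are not reported here. No column stayed unmapped to a line. Alternatives were the replicate number as a block, 2 kinds of correlation between series, no variance trend, robust variances, centred series, a restricted range, genes as the unit, the deposited score and each series left out; the correlation within a line, its use in the restricted range and leaving out USP6NL were added after the data were seen.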

Additional observations from a re-analysis of the deposited data

Results flagged for a closer look

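In 138 groups of 4 series (the named transcripts in each line), 16 had a single series far from the other 3, by the gap to the nearest series over the whole range at the 95% level; chance flags about 1 in 20 groups, which would be 6.9 here. The groups are not independent, since transcripts of one gene share reads. In MDA-MB-231, series 1_2 stood apart for UBE2D1 NM_001204880 (-8.54), UBE2D3 NM_003340 (9.77), UBE2E3 NM_182678 (2.44), USP15 NM_006313 (-1.83) and USP33 NM_201624 (0.0353). Series 1_1 stood apart for UBE2D1 NM_003338 (-0.0841). Series 2_1 did so for UBE2D2 NM_181838 (2.97), UBE2D3 NM_181889 (0.481), USP1 NM_003368 (0.499) and USP42 (9.57). Series 2_2 did so for USP12 (0.256), USP19 NM_001199161 (9.44) and USP25 (0.182). In MDA-LM2, series 2_2 stood apart for UBE2J2 NM_194457 (-1.82), USP19 NM_001199161 (3.06) and USP8 NM_005154 (0.257). USP19 NM_001199161 stood apart in both lines, each time in series 2_2.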

How the results depend on the processing

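The replicate number as a block in limma (a replicate block) left 310 slower transcripts over all and 31 faster ones in MDA-LM2, against 783 and 246 without it, and among members 3 E2 transcripts (UBE2L3 NM_001256356 and 2 of UBE2J2) and 0 deubiquitinase transcripts as slower, and 0 of either as faster. The numbers do not pair the lines: deviations of same-numbered series correlated between -0.00976 and 0.00696 across lines, while series of a line with the same second number correlated between 0.145 and 0.372. With a correlation between the latter the calls over all were 385 and 37, and 1 and 0 deubiquitinase transcripts. With that correlation in the restricted range of rates, 0 transcripts were called in any class or direction; the cause was not tested. Restricting the range alone left 3 E2 transcripts slower, where fewer transcripts enter. Centred series gave 442 faster over all and 1 slower deubiquitinase transcript, the deposited score 139 faster over all, 1 slower and 0 faster deubiquitinase transcripts, and no variance trend or genes as the unit 0 faster deubiquitinases. Leaving out 1 series gave 457 to 1082 slower and 91 to 352 faster transcripts, 1 to 3 slower and 0 faster deubiquitinase transcripts, and 3 to 6 slower and 0 to 1 faster E2 transcripts. The deubiquitinase minus E2 median in MDA-MB-231, -0.0402, was -0.0104 in the restricted range (SD 0.0322, with 2 of 4 series above 0), -0.0532 by gene and -0.0747 as a mean of rates limited to 1 either side of 0. Sign and call changed together for UBE2J2 NM_194457 without MDA-LM2 series 2_2 (0.472, with -0.200 as the lowest value on leaving out 1 series), and by gene median for USP15 NM_006313 (-0.196) and USP4 NM_001251877 (-0.172). Of 1200 single values under alternatives, for 69 named transcripts, 1099 kept direction and call, 55 lost a call, 7 gained one and 36 changed sign without a call. Depth is unknown, so what it limits cannot be given.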

Other observations

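Some member transcripts had rates in the table of 1 line only and entered no comparison. MDA-LM2 alone had 9 of them and MDA-MB-231 alone 10. USP21, which acts on histone H2A, was present through a different transcript in each: NM_001014443 had 1.96, 2.36, 2.29 and 2.30 in MDA-LM2, and NM_012475 had -2.37, 0.277, -2.21 and -2.26 in MDA-MB-231. USP14, the proteasome-bound deubiquitinase, likewise had NM_005151 at 0.0975, 0.512, 0.125 and 0.303 in MDA-LM2 and NM_001037334 at -1.67, 0.304, 0.148 and 0.168 in MDA-MB-231. USP35 (0.360 ± 0.0826), USP20 (0.227 ± 0.0893) and USP18, the ISG15 protease (0.0413 ± 0.0802; SD, n = 4 series each), had rates in MDA-LM2 alone. USP43 and USP44 had rates in MDA-MB-231 alone, with 1 and 2 of their 4 rates above 9.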
